A study of Rattus norvegicus with 8 samples.

Results

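The genes described here are the 80 nuclear genes of mitochondrial oxidative phosphorylation that were measured in germ cells of doxorubicin and control rats. They were taken by symbol from a table of 24059 rows. The names were those of NADH dehydrogenase (Nduf), succinate dehydrogenase (Sdh), ubiquinol-cytochrome c reductase (Uqcr), cytochrome c oxidase (Cox) and ATP synthase (Atp5) genes. Rows whose symbol ends in a -ps suffix were left out, and a mean count of at least 100 over the 8 libraries was required. The pattern matched 105 rows, of which 14 carried a -ps suffix and 2 repeated a symbol. The suffix is not the same as an annotated pseudogene: Atp5mpl-ps1, left out by it, is annotated as protein coding and averaged 3773.4 counts. Of the 89 symbols left, 9 lay under the floor of 100. The floor fell in a gap, since the gene just inside it, Ndufaf6, averaged 277.9 counts and the gene just outside it, Cox7a1, averaged 62.8 counts. The 80 genes comprise 42 of complex I, 4 of complex II, 7 of complex III, 11 of complex IV and 16 of complex V. Of these, 72 encode subunits, or a factor that joins complexes together, and 7 are complex I assembly factors of the Ndufaf series. The remaining gene is Atp5if1, the inhibitor of ATP synthase. All 80 passed the filter on low counts.

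PolyA-enriched RNA was sequenced from GFP-positive germ cells of the testis of Sprague-Dawley rats transgenic for GCS-EGFP, a reporter that marks germ cells. The 4 doxorubicin rats (numbers 2, 3, 6 and 8) received the drug at 5 mg/kg on postnatal day 6, and the 4 control rats (numbers 1, 4, 5 and 9) received vehicle. Cells were collected 24 h later, and each library came from a separate rat. The reporter was carried by rats of both groups, the labels also name the cells as SSC, and a subset of RNA samples with an integrity number above 8 went into libraries.

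Oxidative phosphorylation turns the energy of food into ATP at the inner mitochondrial membrane. Complexes I and II take electrons from NADH and succinate, complex III and cytochrome c pass them on, complex IV hands them to oxygen, and ATP synthase, also called complex V, uses the proton gradient that complexes I, III and IV build. The subunits come from both genomes: the mitochondrial DNA encodes a small hydrophobic core, and the nucleus encodes the rest together with the factors that assemble the complexes. Doxorubicin traps topoisomerase II on DNA, and it is also known for harming mitochondria, above all in heart muscle, where it binds the membrane lipid cardiolipin and cycles electrons at complex I.

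Total estimated counts per library ran from 41253848 to 58871101. The summed germ cell markers (11 genes, Ddx4 and Dazl among them) ranged from 2703 to 2809 CPM (counts-per-million) in doxorubicin libraries and from 2670 to 2750 CPM in control libraries. Markers of other testis cells were present in both groups and none was at 0 in all libraries. Their sums were 48.2 to 57.0 CPM in doxorubicin and 46.2 to 55.4 CPM in control libraries for Sertoli cells (9 genes), and 59.9 to 81.1 CPM in doxorubicin and 67.4 to 84.2 CPM in control libraries for peritubular and stromal cells (9 genes). Endothelial markers (7 genes) summed to 86.9 to 97.4 CPM in doxorubicin and 75.7 to 89.0 CPM in control libraries, and erythroid markers (7 genes) to 9.51 to 15.2 CPM in doxorubicin and 7.58 to 9.63 CPM in control libraries. Of the 6 erythroid markers tested, 2 values were positive and 4 negative, with a median log2 fold change of -0.36. Slc4a1, an anion exchanger of red cells and other tissues, measured 7.48 ± 2.21 CPM in doxorubicin rats and 3.09 ± 0.35 CPM in control rats (SD, n = 4 each) and was called higher (log2 fold change 1.28 ± 0.18 SE, edgeR adjusted p = 0.0339), while Hbb, a beta globin, had a log2 fold change of -1.17 ± 0.29 (SE, edgeR adjusted p = 0.192, DESeq2 adjusted p = 0.0243). Leydig cell markers (7 genes) summed to 5.08 to 11.2 CPM in doxorubicin and 7.75 to 9.69 CPM in control libraries, and macrophage and leukocyte markers (8 genes) to 2.84 to 3.53 CPM in doxorubicin and 2.64 to 3.01 CPM in control libraries. Among the 9 peritubular and stromal markers, 2 values were positive and 7 negative, with a median log2 fold change of -0.26. At an edgeR unadjusted p below 0.05, 1 of them was higher and 2 lower, against 4.19% and 2.56% of all genes tested. None passed edgeR's adjusted test. The part of any of these cell types in the results was not tested.

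The transcripts of the respiratory chain and ATP synthase had nearly the same abundance in both groups. No gene of the 80 passed edgeR's quasi-likelihood test in either direction after Benjamini-Hochberg adjustment over 16976 genes, and none passed DESeq2. Log2 fold changes of doxorubicin over control ran from -0.14 (Ndufa5) to 0.14 (Cox7b), with a median standard error of 0.047. The 95% interval of all 80 genes lay within 0.32 either way on the log2 scale, and that of 46 genes (57.5%) lay within 0.14, a change of 1.1-fold. In bulk RNA, fewer cells of a type and less RNA per cell cannot be told apart.

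Over all 16976 genes tested, edgeR's adjusted test called 0.106% higher and 0.00589% lower after doxorubicin. DESeq2 called 0.897% higher and 0.0621% lower of the 17718 genes to which it gave an adjusted p. Without adjustment, edgeR gave a p below 0.05 to 4.19% of all genes on the higher side and 2.56% on the lower side. Of the 80 genes, 0 were higher and 1, Ndufa5, was lower at that level. The groups were apart, with every doxorubicin library above the controls, for 2.77% of all genes, and with every one below them for 1.95%. The matching counts among the 80 were 0 above and 2 below, Ndufa5 and Uqcrc2, or 2.5%. These counts are close to the shares among all genes or under them.

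The 80 intervals reached at most -0.31 (Ndufb10) on the lower side and 0.31 (Cox7b) on the upper side, both log2. Among all genes tested, 56.1% had an interval within 0.32 and 17.7% within 0.14. Among the 10690 genes at or above the CPM of the lowest of the 80, the shares were 85.7% and 28.2%. That set has only a lower bound and is not matched to the abundance of the 80. The part of abundance in these shares was not tested. The coefficient of variation over the 8 libraries had a median of 4.16% for the 80 genes, 5.82% for those 10690 genes and 8.88% for all genes. It ran from 1.62% for Sdha to 11.4% for Ndufb10. Between the highest and the lowest of 8 libraries, 69 of the 80 genes varied by less than 1.2-fold, whatever the group.

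**Figure D1:**
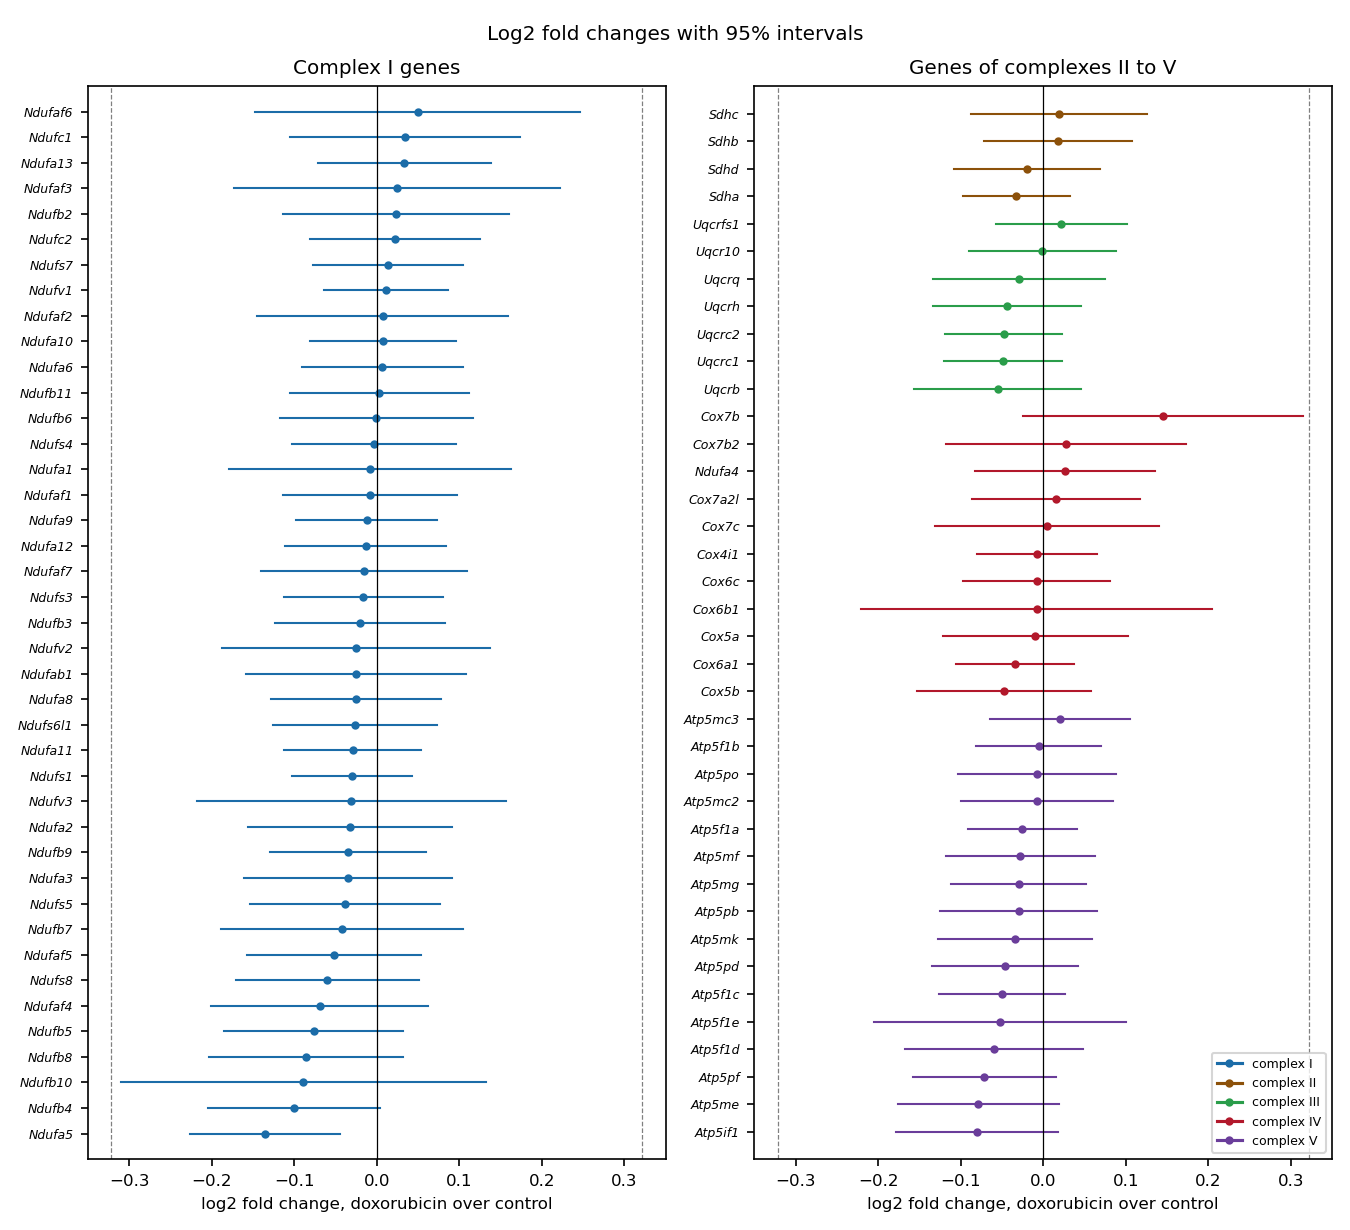
Log2 fold change of doxorubicin over control (horizontal axis) for 79 of the 80 genes (rows), with complex I on the left and complexes II to V on the right, coloured by complex. Points are edgeR estimates from 4 rats a group, bars are 95% intervals, the solid line is no change and the dashed lines mark 0.32 either way; all bars drawn lie between the dashed lines, and among them the bar of Ndufa5 alone does not cross 0.

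Complex I, NADH:ubiquinone oxidoreductase, is the largest complex of the chain, with a matrix arm that oxidizes NADH and reduces ubiquinone and a membrane arm that pumps protons. Its 42 genes had a median log2 fold change of -0.023, with 12 positive and 30 negative values, against a median of -0.0047 with 8108 positive and 8868 negative over all genes tested. Ndufa5 (ENSRNOG00000071062.1), an accessory subunit of the ubiquinone-reducing part of the matrix arm, was the only one with an unadjusted p below 0.05. It measured 47.6, 46.2, 48.3 and 48.8 CPM in doxorubicin rats 2, 3, 6 and 8, against 51.7, 53.3, 54.1 and 50.6 CPM in control rats 1, 4, 5 and 9. The groups did not overlap, and doxorubicin rat 8 came nearest to the controls. The log2 fold change was -0.14 ± 0.042 (SE; 95% interval -0.23 to -0.045), with an unadjusted p of 0.00681 and an adjusted p of 0.403 by edgeR's quasi-likelihood test.

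The core of the matrix arm carries the flavin and the iron-sulfur clusters. Ndufv1 (ENSRNOG00000018117.7), which binds NADH and the flavin, measured 162, 157, 166 and 156 CPM in doxorubicin rats and 162, 160.1, 161 and 153 CPM in control rats. Ndufs1 (ENSRNOG00000011849.7), the large iron-sulfur subunit beside it, measured 167, 165, 162 and 160.0 CPM in doxorubicin rats and 168, 173, 162 and 165 CPM in control rats. For both genes the groups overlapped, with a doxorubicin library highest for Ndufv1 and lowest for Ndufs1. Their log2 fold changes were 0.012 ± 0.035 and -0.030 ± 0.034. Ndufs7, which holds the last iron-sulfur cluster before ubiquinone, averaged 66.5 ± 1.85 CPM in doxorubicin rats and 65.9 ± 2.64 CPM in control rats (SD, n = 4 each), for a log2 fold change of 0.014 ± 0.042. Ndufa9, an accessory subunit at the junction of the arms, averaged 82.4 ± 1.45 CPM in doxorubicin rats and 83.1 ± 3.32 CPM in control rats, a log2 fold change of -0.012 ± 0.039.

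The 20 genes of the membrane arm had 6 positive and 14 negative log2 fold changes, with a median of -0.025. Ndufb4, an accessory subunit of that arm, measured 33.3, 35.1, 36.3 and 35.03 CPM in doxorubicin rats and 37.5, 38.9, 37.5 and 35.8 CPM in control rats. The ranges overlapped through doxorubicin rat 6 and control rat 9, and the log2 fold change was -0.10 ± 0.048 (edgeR unadjusted p = 0.0588, adjusted p = 0.764). Ndufa13, known also as GRIM-19 and linked to cell death signalling, had the smallest p among the positive complex I values and measured 69.4, 66.0, 70.0 and 67.1 CPM in doxorubicin rats and 71.6, 63.0, 68.4 and 63.2 CPM in control rats. Control rat 1 was highest and control rat 4 lowest for Ndufa13, so the control libraries spanned the doxorubicin ones. Ndufb10, picked after its values were seen as the most variable of the 80, measured 41.3, 45.9, 44.7 and 52.5 CPM in doxorubicin rats and 39.6, 52.5, 51.0 and 53.2 CPM in control rats. Control rat 1 was the lowest library for Ndufb10 and doxorubicin rat 2 the next. Doxorubicin rats 3 and 6 also lay below control rats 4, 5 and 9, and doxorubicin rat 8 lay among those controls. The log2 fold change of Ndufb10 was -0.089 ± 0.10 (edgeR unadjusted p = 0.391). The 7 Ndufaf assembly factors had a median of -0.0086, with 3 positive and 4 negative values. Ndufaf6 (ENSRNOG00000040040.5), which had the smallest mean count of the 80, measured 5.38, 5.20, 5.89 and 5.25 CPM in doxorubicin rats and 5.19, 5.19, 5.21 and 5.37 CPM in control rats, and its groups overlapped (log2 fold change 0.050 ± 0.091).

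Complex II, succinate dehydrogenase, is the only complex of the chain made from nuclear genes alone, and it works in the citrate cycle too. Its 4 genes had a median log2 fold change of -0.00082, with 2 positive and 2 negative values, and all 4 intervals lay within 1.1-fold. Sdha (ENSRNOG00000013331.6), the flavoprotein that oxidizes succinate, measured 178, 181, 182 and 184 CPM in doxorubicin rats and 185, 186, 187 and 183 CPM in control rats. It was the steadiest of the 80 genes by coefficient of variation, and the groups overlapped only between doxorubicin rat 8 and control rat 9. The log2 fold change was -0.033 ± 0.030 (95% interval -0.097 to 0.032, edgeR adjusted p = 0.934). Sdhb, the iron-sulfur subunit, averaged 119.6 ± 5.56 CPM in doxorubicin rats and 118 ± 3.65 CPM in control rats, a log2 fold change of 0.018 ± 0.041. The membrane anchors were as close, with 74.5 ± 1.03 CPM in doxorubicin rats and 73.6 ± 5.04 CPM in control rats for Sdhc, a log2 fold change of 0.019 ± 0.049. Sdhd averaged 79.2 ± 2.63 CPM in doxorubicin rats and 80.3 ± 2.80 CPM in control rats, a log2 fold change of -0.020 ± 0.041.

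Complex III, the cytochrome bc1 complex, moves electrons from ubiquinol to cytochrome c. Of its 7 genes, 6 had negative values and 1 a positive one, with a median log2 fold change of -0.044, and 6 intervals lay within 1.1-fold. Uqcrc2 (ENSRNOG00000036742.4), a core protein that faces the matrix, measured 104, 101, 103 and 100.4 CPM in doxorubicin rats and 107, 104, 105 and 105 CPM in control rats. The groups did not overlap, and the nearest libraries were doxorubicin rat 2 and control rat 4. The log2 fold change was -0.048 ± 0.033 (95% interval -0.12 to 0.023), with an edgeR unadjusted p of 0.168 and an adjusted p of 0.869. Its partner Uqcrc1 measured 162, 159, 166 and 167 CPM in doxorubicin rats and 174, 169, 168 and 166 CPM in control rats, with control rat 9 below doxorubicin rats 6 and 8 (log2 fold change -0.048 ± 0.033). Uqcrfs1, the Rieske iron-sulfur protein that carries electrons within the complex, was the gene with a positive value: 101, 94.2, 99.3 and 99.0 CPM in doxorubicin rats and 97.3, 94.2, 98.6 and 97.8 CPM in control rats, a log2 fold change of 0.022 ± 0.037. Here doxorubicin rat 2 was highest and doxorubicin rat 3 lowest of the 8 libraries.

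Complex IV, cytochrome c oxidase, reduces oxygen, and its nuclear subunits surround a core encoded in mitochondria. Its 11 genes had 5 positive and 6 negative values with a median log2 fold change of -0.0075. Cox7b (ENSRNOG00000054689.2), a small membrane subunit, had the largest positive value of the 80. It measured 24.1, 20.1, 23.0 and 24.9 CPM in doxorubicin rats and 19.9, 19.2, 22.5 and 21.8 CPM in control rats. Doxorubicin rats 2, 6 and 8 lay above all controls while doxorubicin rat 3 lay among them, and the log2 fold change was 0.14 ± 0.078 (95% interval -0.024 to 0.31, edgeR unadjusted p = 0.0872, adjusted p = 0.797). Cox4i1 (ENSRNOG00000017817.6), the large subunit through which ATP inhibits the enzyme, measured 309.6, 292, 304 and 309 CPM in doxorubicin rats and 305, 301, 317 and 298 CPM in control rats, a log2 fold change of -0.0075 ± 0.033. Cox5a averaged 122 ± 7.56 CPM in doxorubicin rats and 122 ± 6.75 CPM in control rats, a log2 fold change of -0.0094 ± 0.052. Cox5b averaged 119 ± 8.51 CPM in doxorubicin rats and 123 ± 3.32 CPM in control rats, a log2 fold change of -0.047 ± 0.049. These 3 subunits, which sit against the catalytic core, overlapped between the groups. Cox6a1 and Cox6c, small membrane subunits, had log2 fold changes of -0.034 ± 0.033 and -0.0077 ± 0.041. Ndufa4, first described in complex I and now placed in complex IV, had a log2 fold change of 0.026 ± 0.050.

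Several complex IV subunits have tissue-specific forms. Cox7b2, the form known from testis in humans, measured 56.0, 46.5, 50.9 and 52.0 CPM in doxorubicin rats and 55.3, 50.8, 50.02 and 45.3 CPM in control rats. Its ratio to Cox7b counts averaged 2.23 ± 0.11 in doxorubicin rats and 2.43 ± 0.34 in control rats (SD, n = 4 each). The control ratios reached further up and the groups overlapped, and the ratio does not compare molecules, since transcript lengths were not used. Cox6b1 has 2 rows in the table. The row used here measured 89.1, 105, 95.1 and 89.4 CPM in doxorubicin rats and 79.2, 95.6, 94.3 and 112 CPM in control rats, the widest range of the 80, with control rat 1 lowest and control rat 9 highest. The sum of both rows was 151.4 ± 8.70 CPM in doxorubicin rats and 154.3 ± 12.2 CPM in control rats, and how reads were divided between the rows is uncertain. Among rows left out for their suffix, Atp5mpl-ps1 averaged 72.2 CPM in doxorubicin rats and 72.4 CPM in control rats, and Ndufs5-ps2 averaged 11.4 CPM in doxorubicin rats and 11.4 CPM in control rats. The forms given next lay under the floor, and Cox6b2 is not analysed here. Cox4i2 averaged 0.737 ± 0.193 CPM in doxorubicin rats and 0.751 ± 0.199 CPM in control rats. Cox7a1, a muscle form, averaged 1.07 ± 0.24 CPM in doxorubicin rats and 1.32 ± 0.13 CPM in control rats, and Cox8c, known from human testis, averaged 0.924 ± 0.173 CPM in doxorubicin rats and 1.02 ± 0.09 CPM in control rats. Cox6a2, also a muscle form, had 0.067 ± 0.079 CPM in doxorubicin rats and 0.103 ± 0.053 CPM in control rats, and Ndufa4l2 had 0.151 ± 0.058 CPM in doxorubicin rats and 0.114 ± 0.042 CPM in control rats. The row named Cox7a2, the widely expressed form in other tissues, held 0.623, 0.361, 0.143 and 0.235 CPM in doxorubicin rats and 0, 0.106, 0.133 and 0.192 CPM in control rats. At a mean of 12.0 counts this row is uncertain. edgeR gave it an unadjusted p of 0.0170 and an adjusted p of 0.54.

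**Figure D2:**
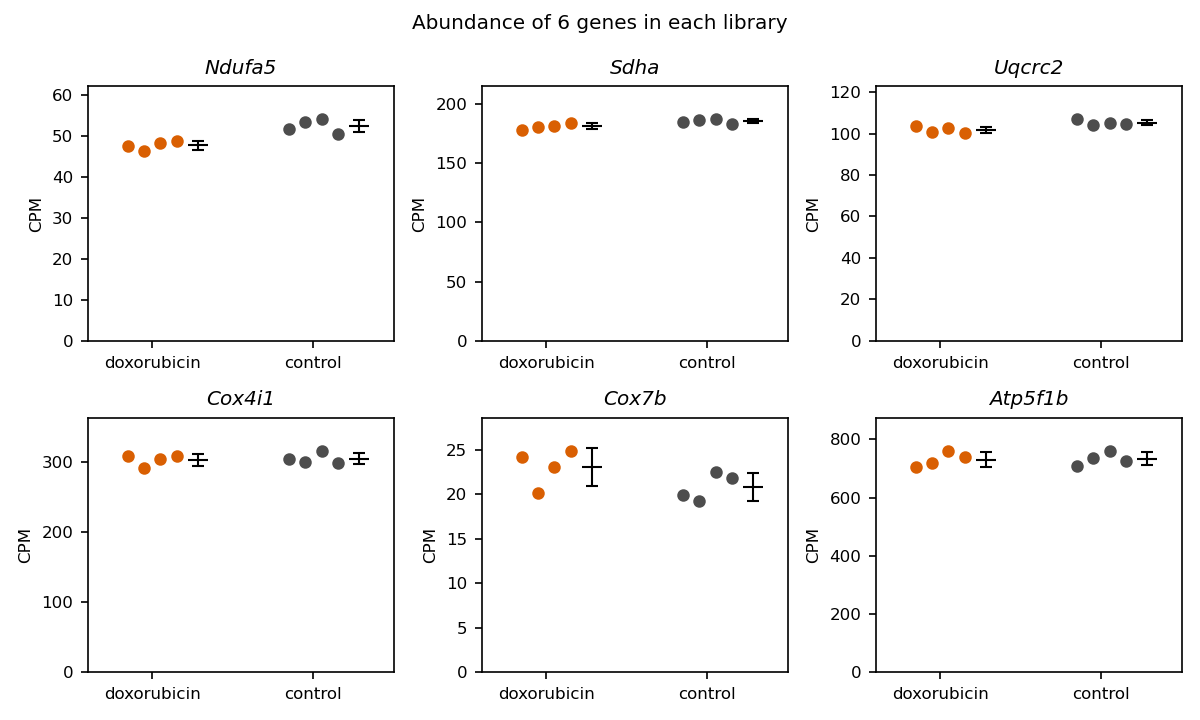
Abundance in CPM (vertical axes, from 0) of Ndufa5, Sdha, Uqcrc2, Cox4i1, Cox7b and Atp5f1b in each library, doxorubicin left and control right. Points are single rats (n = 4 each), bars show the mean and SD; the groups do not overlap for Ndufa5 and Uqcrc2 and overlap for the other 4 genes.

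Complex V, ATP synthase, joins a rotary membrane ring to the F1 head that makes ATP. Of its 16 genes, 15 had negative log2 fold changes, with a median of -0.032, and 11 intervals lay within 1.1-fold. Atp5f1b (ENSRNOG00000002840.5), the catalytic subunit of the F1 head, had the largest mean count of the 80. It measured 704, 719, 761 and 739.5 CPM in doxorubicin rats and 709, 738, 761 and 726 CPM in control rats, with a log2 fold change of -0.0055 ± 0.035 (95% interval -0.081 to 0.070, edgeR adjusted p = 0.994). Atp5f1a, its partner in the head, measured 568, 586, 599 and 585 CPM in doxorubicin rats and 581, 607, 603 and 588 CPM in control rats, a log2 fold change of -0.025 ± 0.030. For both genes the groups overlapped, and the sign of the Atp5f1b value changed when doxorubicin rat 2 or 3 or control rat 5 was left out. The 2 genes of the membrane ring that were measured encode the same mature c subunit. Atp5mc2 averaged 140.2 ± 2.70 CPM in doxorubicin rats and 141 ± 8.14 CPM in control rats, and Atp5mc3 averaged 78.9 ± 1.84 CPM in doxorubicin rats and 77.8 ± 2.71 CPM in control rats. Their log2 fold changes were -0.0076 ± 0.043 and 0.020 ± 0.039, and that of Atp5mc3 was the only positive value of complex V.

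The smallest p-values in complex V belonged to a stalk gene and the inhibitor. Atp5pf, coupling factor 6 of the peripheral stalk that holds the head still, measured 95.4, 90.4, 92.3 and 92.0 CPM in doxorubicin rats and 100.2, 95.9, 101 and 91.8 CPM in control rats. Atp5if1 (ENSRNOG00000013300.6), which blocks the enzyme from running backwards when the proton gradient fails, measured 66.3, 59.3, 63.9 and 60.3 CPM in doxorubicin rats and 68.3, 65.8, 65.9 and 64.0 CPM in control rats. For each gene the doxorubicin libraries tended to the low side but overlapped the controls. The log2 fold changes were -0.071 ± 0.040 and -0.080 ± 0.045, with edgeR adjusted p = 0.805 and 0.807. All 5 genes of the F1 head (median -0.050), all 4 of the peripheral stalk (-0.038) and all 4 accessory genes of the membrane part (-0.032) were negative, though none passed the test.

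Small negative values outnumbered positive ones in complexes I, III and V, whereas complex II had 2 positive and 2 negative and complex IV had 5 positive and 6 negative. Over the 80 genes, 21 values were positive and 59 (73.8%) negative, with a median log2 fold change of -0.025, against 52.2% negative and a median of -0.0047 for all genes tested. The libraries did not contribute equally. The mean deviation from each gene's own mean was, in log2 units, 0.0041, -0.050, 0.014 and -0.0082 in doxorubicin rats 2, 3, 6 and 8, against 0.0070, 0.010, 0.036 and -0.013 in control rats 1, 4, 5 and 9. Doxorubicin rat 3 was the lowest library and control rat 5 the highest, while the other 6 libraries of both groups interleaved. Doxorubicin rat 3 was the lowest of 8 libraries for 27 of the 80 genes and the highest for none, and control rat 5 was the highest for 23. Without doxorubicin rat 3, 36 of the 80 values were positive, and the median log2 fold change was -0.0029. Leaving out any 1 of the other libraries gave between 16 and 30 positive values. In complex V the mean deviation of doxorubicin rat 3 was -0.058 and that of control rat 5 was 0.051, and without doxorubicin rat 3 the median of complex V was -0.018.

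**Figure D3:**
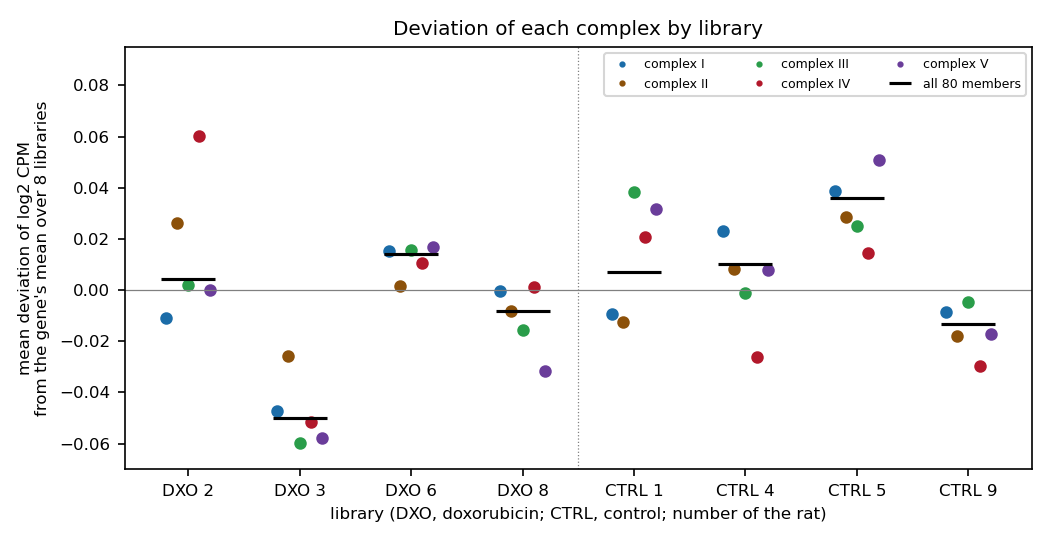
Mean deviation of log2 CPM from each gene's mean over 8 libraries (vertical axis) for each library (horizontal axis), doxorubicin rats left of the dotted line and control rats right of it. Points are means over the genes of a complex and black bars the mean over all 80; doxorubicin rat 3 is low for all 5 complexes, with a mean over the 80 of -0.050, and control rat 5 is high for all 5, with a mean of 0.036.

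Doxorubicin rat 3 was low in both ribosomal gene groups but near the mean for citrate cycle genes. The nuclear genes of the mitochondrial ribosome, which translates the mitochondrial messages, deviated by -0.049 in that library, and the cytosolic ribosomal protein genes by -0.071, against -0.063 for the cytosolic set in control rat 4. The citrate cycle genes deviated by -0.0037 in doxorubicin rat 3 and by -0.038 in doxorubicin rat 6. The share of all counts taken by the 80 genes was 0.712%, 0.712%, 0.740% and 0.716% in doxorubicin rats 2, 3, 6 and 8, against 0.720%, 0.740%, 0.749% and 0.729% in control rats 1, 4, 5 and 9. The shares of doxorubicin rats 2, 3 and 8 lay below those of all controls, and the groups overlapped through doxorubicin rat 6.

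The 13 mitochondrially encoded subunits varied far more between libraries than the nuclear ones, and again not by group. Their mean deviation was 0.26, -0.17, -0.11 and 0.019 in doxorubicin rats 2, 3, 6 and 8, against 0.16, -0.11, 0.092 and -0.13 in control rats 1, 4, 5 and 9. Their median coefficient of variation was 10.9%, and the share of counts that they and the other mitochondrial genes took ran from 7.37% to 9.23% in doxorubicin rats and from 7.47% to 8.67% in control rats. Values were 7 positive and 6 negative, with a median log2 fold change of 0.0026, and 8 of 13 intervals lay within 0.32. Mt-nd5, a proton-pumping subunit of complex I, and Mt-cyb, the cytochrome b of complex III, had the smallest p-values, with log2 fold changes of -0.065 ± 0.10 and 0.041 ± 0.097. Across the libraries the nuclear and the mitochondrial sets followed each other only in part. Doxorubicin rat 3 was lowest and control rat 9 next lowest in both sets. Doxorubicin rat 2 and control rats 1 and 5 were above average in both. Doxorubicin rat 6 and control rat 4 were above average in the nuclear genes and below in the mitochondrial ones. For doxorubicin rat 8 it was the reverse.

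Genes that build, supply or regulate the chain were read from lists in the same test. Neither edgeR's adjusted test nor DESeq2 called any of them in either direction. In the lists of ribosomal protein genes, described further on, edgeR's adjusted test also called none, and DESeq2 called 1, Rps27l. Of 18 complex I assembly factors, which include the 7 counted above, 5 were positive and 13 negative, with no unadjusted p below 0.05. The smallest p-values were those of Tmem126b (-0.091 ± 0.057) and Tmem70 (-0.12 ± 0.073), both membrane assembly factors, given as log2 fold changes. Of the 19 complex IV assembly factors, 9 were positive and 10 negative. At an edgeR unadjusted p below 0.05, which 2.56% of all genes tested had on the lower side, 1 factor was lower. It was Higd1a, a small respirasome factor, which measured 69.5, 65.9, 68.3 and 67.7 CPM in doxorubicin rats and 73.7, 72.5, 75.5 and 69.4 CPM in control rats. The groups touched only at doxorubicin rat 2 and control rat 9, and edgeR's adjusted p was 0.617. Cox15, which makes heme A for complex IV, had a log2 fold change of 0.11 ± 0.060. The 8 further complex III genes were 3 positive and 5 negative, with Uqcc2, a factor for cytochrome b, at -0.14 ± 0.067 and Ttc19, which clears Rieske fragments, at 0.067 ± 0.043. The 3 complex II and 4 complex V assembly factors had medians of -0.049 and -0.025, with Sdhaf3 at -0.11 ± 0.12, Sdhaf1 at -0.049 ± 0.068 and Atpaf2 at 0.024 ± 0.057. The complex V values were 1 positive and 3 negative and ran from -0.12 to 0.024. The lowest of them equals the lowest value of the complex I list, so the lists are not separate counts.

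The mobile carriers looked alike. Of the 15 genes for cytochrome c and coenzyme Q synthesis, 4 were positive and 11 negative, and none had an unadjusted p below 0.05. Cycs (ENSRNOG00000065095.1), cytochrome c itself, which also triggers caspases once it leaves mitochondria, measured 27.2, 26.4, 23.6 and 26.6 CPM in doxorubicin rats and 28.9, 25.9, 29.6 and 28.6 CPM in control rats. Doxorubicin rat 6 was lowest and the groups overlapped, with a log2 fold change of -0.12 ± 0.062 and an edgeR adjusted p of 0.793. Coq9, a lipid-binding protein of coenzyme Q synthesis, had a log2 fold change of -0.093 ± 0.052. Among 8 genes of uncoupling and nucleotide exchange, 5 were positive and 3 negative. Slc25a4, the adenine nucleotide carrier ANT1, measured 41.6, 32.2, 32.7 and 38.6 CPM in doxorubicin rats and 31.2, 32.4, 33.2 and 33.2 CPM in control rats, and Vdac1, the outer membrane channel, had a log2 fold change of 0.15 ± 0.083. For Slc25a4, doxorubicin rats 2 and 8 lay above the controls and rats 3 and 6 among them (edgeR adjusted p = 0.764).

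Of 18 transcriptional regulators of mitochondrial biogenesis, 9 were positive and 9 negative, with 1 gene in each direction at an edgeR p below 0.05 before adjustment. Among all genes tested, 4.19% were higher and 2.56% lower at that level. Esrra (ENSRNOG00000021139.6), the estrogen-related receptor alpha that drives respiratory genes in muscle and other tissues, measured 4.48, 2.92, 3.05 and 3.18 CPM in doxorubicin rats and 2.66, 2.41, 2.31 and 2.57 CPM in control rats. The groups did not overlap, and doxorubicin rat 2 was well ahead of the rest. The log2 fold change was 0.46 ± 0.15 (95% interval 0.13 to 0.79), with an edgeR unadjusted p of 0.00968 and an adjusted p of 0.451. Pprc1, a coactivator of the PGC-1 family, measured 308, 319, 319 and 317 CPM in doxorubicin rats and 334, 321, 326 and 343 CPM in control rats. Its doxorubicin libraries lay below all controls, with an edgeR adjusted p of 0.736. Among the 10 genes that maintain mitochondrial DNA, 4 were positive and 6 negative. Polg, the mitochondrial DNA polymerase, measured 245, 254, 248 and 248 CPM in doxorubicin rats and 254, 256, 256 and 264 CPM in control rats, without overlap. Its log2 fold change was -0.049 ± 0.030, and edgeR's adjusted p was 0.842. Top1mt, the mitochondrial topoisomerase I, had a log2 fold change of -0.13 ± 0.078.

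Central carbon metabolism was also without a called gene. The citrate cycle and its pyruvate entry gave 7 positive and 14 negative values of 21, with a median of -0.0085, and Pdk2 (-0.27 ± 0.14) and Pdk1 (-0.092 ± 0.062), kinases that restrain pyruvate entry, had the smallest p-values. Glycolysis also gave 7 positive and 14 negative values of 21, with a median of -0.046. At an edgeR unadjusted p below 0.05, 2 of the 21 genes were lower, against 2.56% of all genes tested. Slc2a1, the glucose transporter GLUT1, measured 13.3, 14.7, 13.5 and 14.9 CPM in doxorubicin rats and 17.6, 13.9, 17.1 and 16.8 CPM in control rats. Hk2, hexokinase 2, measured 114, 143, 136 and 140.4 CPM in doxorubicin rats and 139, 152, 148 and 156 CPM in control rats. In both genes the groups overlapped, through control rat 4 for Slc2a1 and control rat 1 for Hk2. Their log2 fold changes were -0.21 ± 0.083 and -0.16 ± 0.066, with edgeR adjusted p = 0.612 and 0.669.

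The gene sets of the 2 ribosomes had medians on different sides of 0. Of 72 mitochondrial ribosomal protein genes, 14 were positive and 58 negative, with a median log2 fold change of -0.026, close to that of the 80 genes, and Mrpl42 alone was lower at an unadjusted p below 0.05 (-0.099 ± 0.040, edgeR adjusted p = 0.649). Of 84 cytosolic ribosomal protein genes, 69 were positive and 15 negative, with a median of 0.037. At an edgeR unadjusted p below 0.05, 9 of the 84 were higher and 0 lower, against 4.19% and 2.56% of all genes tested. Rps27l, a p53 target that resembles a ribosomal protein, measured 55.8, 40.7, 41.3 and 42.6 CPM in doxorubicin rats and 33.1, 32.4, 28.4 and 27.1 CPM in control rats, without overlap. Its log2 fold change was 0.58 ± 0.11, with an edgeR adjusted p of 0.0917, and DESeq2 called it. Rps19, a structural protein of the small subunit, was at 0.15 ± 0.044 on the log2 fold change scale (edgeR adjusted p = 0.322). The difference between the lists was not tested.

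**Figure D4:**
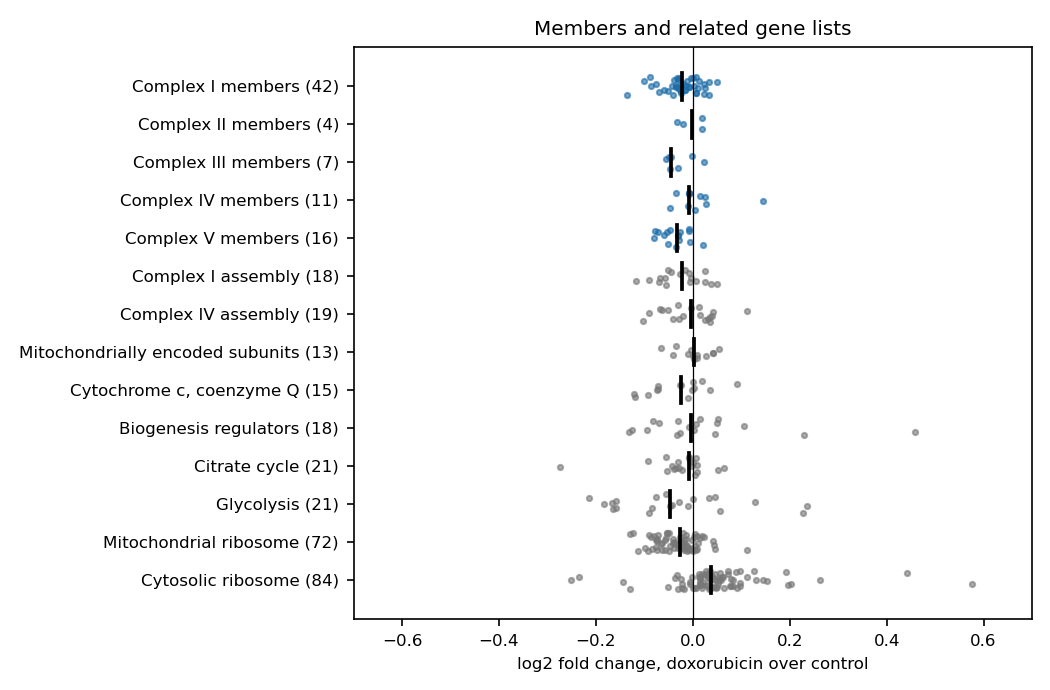
Log2 fold change of doxorubicin over control (horizontal axis) for the genes of each complex (blue) and of related lists (grey), with the number of genes in parentheses. Points are genes and black bars medians; the medians of the 5 complexes lie between -0.044 and -0.00082, and that of the cytosolic ribosome lies at 0.037.

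Promoter motifs, which the choice by name did not use, were each present in a minority of the genes. Promoter windows of 300 bases, from 250 before to 50 after the start, were found for 72 of them in RefSeq (build GRCr8), matched by symbol, or for Ndufs6l1 by identifier, and 4 fixed motifs were searched on both strands. NRF1, nuclear respiratory factor 1, binds GCGCA, any base, then GCGC, and 16 of 72 windows (22.2%) held it, against 4.71% of all 27457 windows and 8.61% of those of 12898 tested genes. The ETS core CCGGAAG, bound by GABP among others, was in 20 windows (27.8%), against 9.22% of all and 15.1% of tested genes. AAGATGG followed by CGGC, a YY1 motif, was in 8 windows (11.1%), against 0.798% of all and 1.54% of tested genes, and 7 of the 8 belonged to complex I. TGACCTTG, bound by estrogen-related receptors, was in 3 windows (4.17%), against 1.48% of all and 1.03% of tested genes. No matches of different motifs overlapped, and the NRF1 matches lay within 100 bases of the start in 16 of 19 cases. Windows of 3 genes are printed because they belong to the gene with the smallest p and to steady genes of 2 complexes, and the capitals mark NRF1 matches in Ndufa5 and Sdha and ETS matches, read as CTTCCGG on this strand, in Cox4i1. They lie at chr4:53971186-53971485 on the minus strand (Ndufa5), chr1:30764303-30764602 on the plus strand (Sdha) and chr19:65630133-65630432 on the plus strand (Cox4i1), and each is written 5′ to 3′ on the gene's own strand.
Ndufa5: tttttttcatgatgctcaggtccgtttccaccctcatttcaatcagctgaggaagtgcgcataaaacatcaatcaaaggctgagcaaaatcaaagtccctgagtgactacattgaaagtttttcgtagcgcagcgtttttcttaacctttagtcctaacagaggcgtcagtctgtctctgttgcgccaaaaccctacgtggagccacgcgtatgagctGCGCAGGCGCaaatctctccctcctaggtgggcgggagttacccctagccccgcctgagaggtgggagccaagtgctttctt
Sdha: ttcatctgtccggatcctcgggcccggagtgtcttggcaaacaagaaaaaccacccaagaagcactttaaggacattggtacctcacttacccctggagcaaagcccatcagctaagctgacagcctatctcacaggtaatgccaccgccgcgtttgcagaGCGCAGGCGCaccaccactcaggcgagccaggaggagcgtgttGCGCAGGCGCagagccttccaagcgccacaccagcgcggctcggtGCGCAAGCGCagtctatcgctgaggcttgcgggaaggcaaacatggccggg
Cox4i1: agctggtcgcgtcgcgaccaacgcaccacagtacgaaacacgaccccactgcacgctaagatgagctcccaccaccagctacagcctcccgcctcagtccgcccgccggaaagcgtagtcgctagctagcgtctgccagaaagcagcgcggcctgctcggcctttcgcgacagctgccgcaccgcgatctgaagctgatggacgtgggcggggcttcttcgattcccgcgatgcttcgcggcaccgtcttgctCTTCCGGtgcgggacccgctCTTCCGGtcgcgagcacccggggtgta
Counted from 0 at the first transcribed base, the NRF1 match of Ndufa5 begins at -32, those of Sdha begin at -89, -46 and -1, and the ETS matches of Cox4i1 begin at 3 and 23. A match describes these letters only and is not a measured binding site.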

How the data were processed

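Libraries came from 4 doxorubicin and 4 control rats, grouped by their sample titles. The deposited values are estimated counts for each gene, left without normalization by the authors. The submitters' processing notes name fastp 0.23.2, Trimmomatic, kallisto 0.48.0, featureCounts and DESeq2 1.40.2, without role or order, and the build rn6. Whether strand was used, and how reads matching several genes were treated, is not given in the sources used here. Between 32.5% and 33.6% of values in a library were not whole within 1e-06, so counts were rounded.

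Genes kept by filterByExpr (16976) were tested with edgeR 4.0.16 in R 4.3.3 (TMM factors, robust quasi-likelihood F test, no covariate), with Benjamini-Hochberg adjustment over all of them and a threshold of 0.05. edgeR's common biological coefficient of variation was 8.82%. Values in CPM are TMM-scaled with SDs over 4 rats, log2 fold changes carry SEs, and intervals cover 95%. Intervals were read against bounds of 0.32 and 0.14 (log2). Deviations by library use log2 CPM with a prior count of 2. The procedure was tested on simulated data. Alternatives were DESeq2 1.42.0, limma 3.58.1 (voom), other scalings and filters, a term for the set of rat numbers, and leaving out each library.

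The genes and lists were chosen with earlier results of these data known. The rule for genes to name took each gene past the threshold, the 2 with the smallest p per complex and direction, core subunits, tissue forms, and from each related list the 2 lowest p-values. Ndufb10 was added after its values were seen. Cox8a, Cox6b2, Atp5mc1, Uqcr11, Ndufa7, Ndufb1 and Ndufaf8 are not analysed here, and levels per transcript length are not compared. The row named Ndufs6l1 carries the identifier that RefSeq (GRCr8) names Ndufs6. No promoter window was matched for 8 of the 80 genes. The values of 1 of the 80 genes are not reported here.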

Additional observations from a re-analysis of the deposited data

Results flagged for a closer look

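The Ndufaf6 value of control rat 9, 5.371 CPM, stood above those of the other control rats (5.19, 5.19 and 5.21 CPM), with a gap that was large against the range of its group; the doxorubicin rats measured 5.38, 5.20, 5.89 and 5.25 CPM. Of 72 groups examined in this way, 1 met the criterion, where chance alone would give about 1 in 20, or 3.6.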

How the results depend on the processing

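In none of the 17 alternative fits, nor with another count floor, did an oxidative phosphorylation gene pass the adjusted threshold. The count at an unadjusted p below 0.05 on the lower side was 2 with limma-voom and ran from 1 to 4 when 1 library was left out (2 where it was doxorubicin rat 2, 3 where it was control rat 1 and 4 where it was control rat 9). On the higher side it was 1 with a term for the set of rat numbers, 1 with a floor of 10 mean counts, and 0 to 1 with 1 library left out (1 without doxorubicin rat 3 or control rat 5). The shares of all genes at that level in the alternative fits are not given here, so these counts have no background beside them. The number of positive values ran from 16 to 36 with 1 library left out, the highest without doxorubicin rat 3. In fits to rats 1 to 4 only and to rats 5 to 9 only, chosen after seeing the data, the lower count was 0 and 0. With rats 5 to 9 only, 34 values were positive and the median of complex III was 0.0003.

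Of 527 values of named genes, 29 from 12 genes had the opposite sign at 2 decimals, the largest of these at 0.16, another 29 were 0 at that precision, and 469 kept their sign. With rats 5 to 9 only these were Atp5f1b (0.01), Cox6c (0.03), Ndufa9 (0.03) and Sdhc (-0.03). With rats 1 to 4 only these were Atp5mc2 (0.05), Cox6b1 (0.16), Cox7b2 (-0.04), Ndufs7 (-0.02) and Ndufv1 (-0.01), and limma-voom gave Cox6b1 0.01. With 1 library left out the values ran from -0.02 to 0.01 for Atp5f1b, -0.04 to 0.02 for Atp5mc2, -0.02 to 0.02 for Cox4i1, -0.04 to 0.03 for Cox5a, -0.09 to 0.08 for Cox6b1, -0.02 to 0.02 for Cox6c, -0.02 to 0.08 for Cox7b2, -0.03 to 0.02 for Ndufa9, -0.01 to 0.05 for Sdhb and -0.03 to 0.05 for Sdhc. The cause was not tested.

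Over all genes, 19 were called, against 170 with DESeq2, 53 without the robust option, 61 with the term for rat numbers, 62 without doxorubicin rat 2, 18 without doxorubicin rat 3, 1 to 11 with any other library left out, 0 with rats 1 to 4 only and 92 with rats 5 to 9 only. No paired analysis was possible because the rat numbers are not shared between the groups. With 4 rats a group, the median standard error of the 80 genes was 0.047 (log2). Differences of that size did not pass the adjusted threshold, nor did larger ones, such as -0.14 for Ndufa5 (edgeR adjusted p = 0.403). A p above the threshold does not show that a gene was the same in both groups.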
